A study of Mus musculus with 4 samples.

Results

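CD93 is a transmembrane receptor of endothelial cells, and these data hold RNA levels of its gene, of its lectin relatives and of its matrix and secreted ligands in endothelial cells sorted from tumours. The 7 genes were chosen by name and the rule uses no measured value. Still, earlier results of these data were known when the set was proposed. The set holds the lectin receptor genes Cd93, Clec14a, Cd248 and Thbd, the ligand genes Mmrn2 and Igfbp7, and Mmrn1. Mmrn1 is given as a relative of Mmrn2, and no binding to CD93 is stated for it here. All 7 were found among 55367 gene names in the count table, and all 7 passed the filter on low counts, which left 16945 genes. The anti-CD93 group had 2 libraries from C57BL/6 mice with subcutaneous KPC tumours that had received an antibody against CD93 intraperitoneally 48 hours before the cells were taken. The control IgG group had 2 libraries from mice of the same strain with the same tumours, given control rat IgG at the same time. KPC is a mouse pancreatic cancer line, here grown under the skin of the flank and not in the pancreas. Cells that carried CD31 and lacked CD45 were sorted after digestion of the tumour, so both groups share the digestion and the sort. The labels give no antibody clone or dose, no age, and no word on whether each library was a mouse of its own, so the spread behind every p-value is that between libraries and may be technical.

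CD93, CLEC14A, endosialin (the product of Cd248) and thrombomodulin (the product of Thbd) form the group XIV family of C-type lectin-like receptors, which carry a lectin-like domain at the tip, EGF-like repeats and a short tail inside the cell. CD93 and CLEC14A are known from endothelium, thrombomodulin from endothelium as the cofactor through which thrombin activates protein C, and endosialin mainly from pericytes and fibroblasts of growing tissue and tumours. Multimerin-2, the product of Mmrn2, is an endothelial matrix protein that binds CD93, CLEC14A and endosialin, and IGFBP7 is a secreted vascular protein that binds CD93.

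The assigned reads numbered 17813993 and 13808077 in anti-CD93 replicates 1 and 2, and 12264231 and 9364294 in control IgG replicates 1 and 2. Control IgG replicate 2 stood apart: reads of 27718 genes were found in it, although it was the shallowest, and of 23796 to 25430 genes in the other libraries. Mitochondrial ribosomal RNA took 6.20% of its reads and 11.0% to 11.8% of theirs. Its log2 CPM correlated with theirs at 0.945 to 0.947 across genes, against 0.977 to 0.983 among the other libraries; genes are not independent replicates. Levels are CPM (reads per 1e6 reads assigned to tested genes, after TMM scaling), and log2 fold changes are anti-CD93 over control IgG from edgeR's quasi-likelihood test on all 16945 genes, with Benjamini-Hochberg adjustment over all of them. The genes of the sort antigens followed the sort in every library. Pecam1, the gene of CD31, had 1661 and 1663 CPM with anti-CD93 against 1685 and 1872 CPM with control IgG. Ptprc, the gene of CD45, had 2.32 to 5.08 CPM. Levels of these genes do not measure how pure the sort was. The 5 leukocyte markers summed to 15.0 to 18.5 CPM with anti-CD93 and 13.5 to 26.8 CPM with control IgG. The 5 tumour epithelial markers summed to 1768 to 2159 CPM with anti-CD93 and 1518 to 2250.0 CPM with control IgG, so both groups held RNA of epithelial genes as well. Of these 5, Epcam had 34.1 and 41.1 CPM with anti-CD93 against 21.7 and 23.4 CPM with control IgG, and Cdh1 had 351 and 290.0 CPM with anti-CD93 against 216 and 210.4 CPM with control IgG. Both lay apart on the higher side with log2 fold changes of 0.74 and 0.59 (edgeR adjusted p = 0.812 for each), while the 3 keratin genes overlapped. Groups lay apart in 39.8% of all genes. The part of epithelial cells in the members' values was not tested.

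The members' start sites are shown by their upstream sequence where a promoter window could be matched. RefSeq windows on GRCm38.p6 matched 3 of the 7 members by symbol, Clec14a, Mmrn1 and Igfbp7. Printed are Clec14a and Igfbp7, a receptor and a ligand gene whose windows, as printed, lie outside the deposited gene spans. The letters GGAA, the core that ETS factors of endothelial cells are known to bind, and their reverse complement TTCC are in capitals.
Clec14a: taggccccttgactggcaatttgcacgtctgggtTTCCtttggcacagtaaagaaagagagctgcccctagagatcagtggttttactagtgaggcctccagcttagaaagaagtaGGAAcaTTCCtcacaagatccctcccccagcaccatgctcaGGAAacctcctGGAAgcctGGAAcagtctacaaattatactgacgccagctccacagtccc
Igfbp7: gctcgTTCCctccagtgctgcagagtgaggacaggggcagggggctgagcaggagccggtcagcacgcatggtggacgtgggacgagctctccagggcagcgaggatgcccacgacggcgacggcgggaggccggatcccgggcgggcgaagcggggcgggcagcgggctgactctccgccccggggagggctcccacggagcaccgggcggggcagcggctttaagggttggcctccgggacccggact
The Clec14a window of 218 bases (chr12:58269291-58269508, minus strand) held 6 matches on both strands together, after 32 bases inside the deposited exon were left out. Windows of that length held at least 1 match in 90.9% of 32851 promoters and at least 6 in 4.92%. The Igfbp7 window of 250 bases (chr5:77408046-77408295, minus strand) held 1 match. At this length 93.4% of promoters held at least 1, with a median of 3. The Mmrn1 window (chr6:60944067-60944316, plus strand), which is not printed because it lies inside the deposited gene span, held 9 matches, a number reached or exceeded in 0.505% of promoters. Such matches describe the letters only.

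None of the 7 genes differed between the groups past the test. Of the members 0 of 7 had an adjusted p under 0.05, in a comparison where 0% of the 16945 genes tested did, and 0 of 7 had an unadjusted p under 0.05, against 4.49% of all genes. By fold change 6 of 7 lay lower with anti-CD93 and 1 higher, where 50.9% of all genes lay lower, and the members' median log2 fold change was -0.21, against -0.0092 for all genes tested. In Mmrn2 and Igfbp7 both anti-CD93 libraries lay below both control IgG libraries, 2 of 7 members, where 39.8% of all genes had groups that did not overlap and 19.7% had anti-CD93 on the lower side. With 7 members, a count of 2 is read as no result about them. DESeq2 called 5 genes and limma-voom called 0, in neither case a member. With 2 libraries against 2, an exact two-sided permutation test cannot go below p = 0.333.

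**Figure D1:**
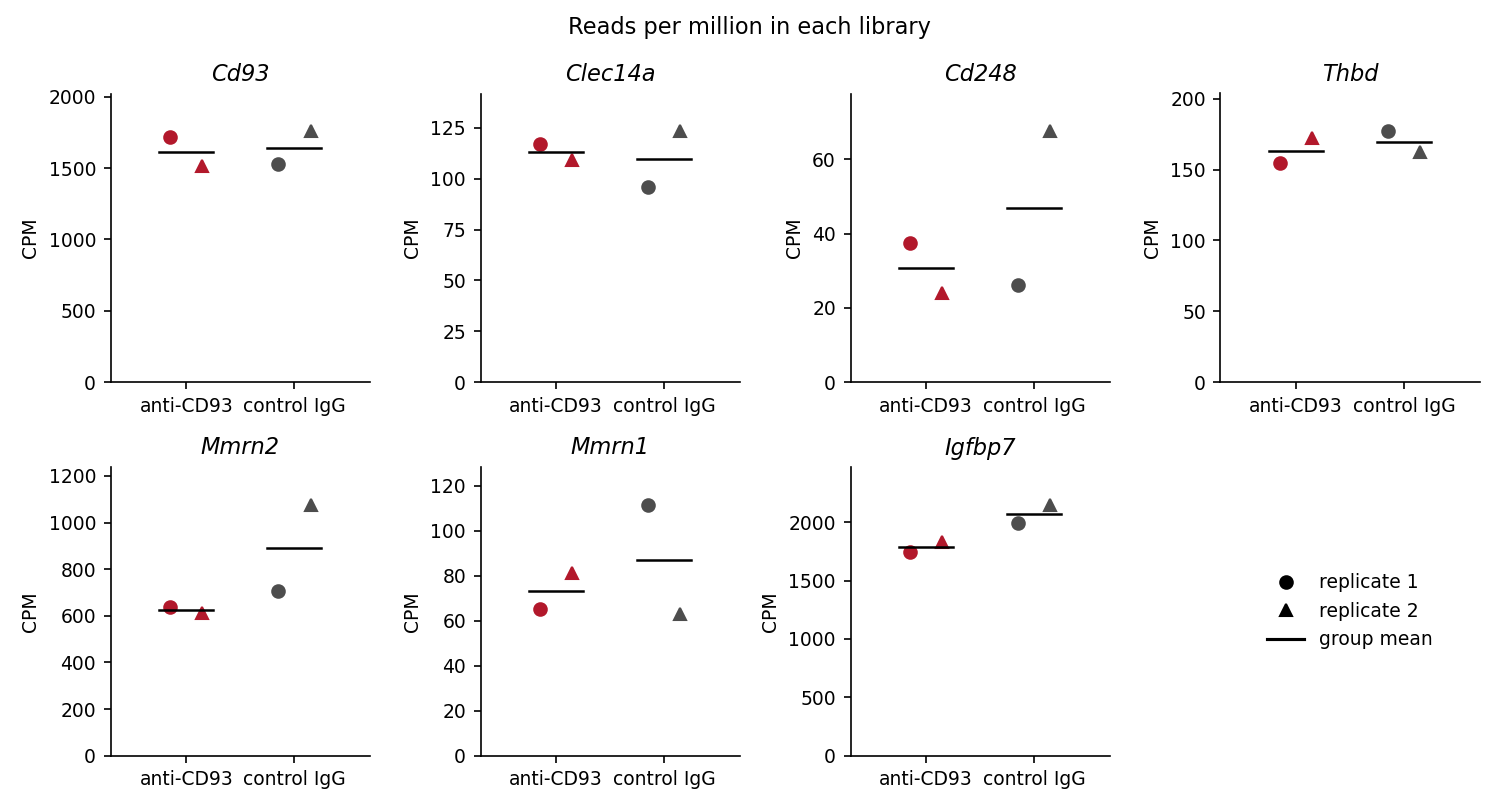
Level of each of the 7 genes in each library in CPM on a linear axis from 0, with anti-CD93 libraries in red, control IgG libraries in grey, replicate 1 as circles, replicate 2 as triangles and group means as bars. The groups overlap in Cd93, Clec14a, Cd248, Thbd and Mmrn1, and control IgG replicate 2 is the highest library for Mmrn2 at 1077 CPM and for Cd248 at 67.6 CPM.

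Cd93 (chromosome 2, 148436640 to 148443563, GRCm38), the gene of the antibody's target, had 1716 and 1514 CPM with anti-CD93 against 1529.7 and 1759 CPM with control IgG. The libraries of the 2 groups interleaved, and control IgG replicate 2 was the highest. The group means were 1615 ± 143 CPM with anti-CD93 and 1644 ± 162 CPM with control IgG (SD, n = 2 each), a log2 fold change of -0.026 (SE 0.18, edgeR adjusted p = 0.976). The 95% interval ran from 0.742-fold to 1.30-fold. The sign of this value changed with the library left out, from -0.12 without control IgG replicate 1 to 0.077 without control IgG replicate 2 (adjusted p = 0.404 and 0.896).

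Clec14a (chromosome 12, 58264720 to 58269290), the gene of the endothelial receptor that shares multimerin-2 with CD93, had 117 and 109 CPM with anti-CD93 against 96.1 and 123 CPM with control IgG. Both anti-CD93 libraries lay between the control libraries. Its log2 fold change was 0.045 (SE 0.19, edgeR adjusted p = 0.963), with a 95% interval from 0.760-fold to 1.40-fold. It was 0.23 without control IgG replicate 2 and -0.12 without control IgG replicate 1 (adjusted p = 0.633 and 0.404), so its sign rested on which control library was used.

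Thbd (chromosome 2, 148404466 to 148408188), the gene of thrombomodulin, had 154 and 172 CPM with anti-CD93 against 177 and 162 CPM with control IgG. The groups overlapped, and the libraries lay closer together than those of any other lectin member. The group means were 163 ± 12.5 CPM and 169.6 ± 10.5 CPM in anti-CD93 and control IgG (SD, n = 2 each), a log2 fold change of -0.055 (SE 0.17, edgeR adjusted p = 0.947). Thbd is the neighbour of Cd93 on the same strand, with 28.5 kb between them. Per read of Cd93 there were 0.0900 and 0.114 reads of Thbd with anti-CD93 and 0.116 and 0.0922 with control IgG, so the ratio of these neighbours differed as much within each group as between them.

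Cd248 (chromosome 19, 5068078 to 5070682), the gene of endosialin, had 37.3 and 23.9 CPM with anti-CD93 against 26.2 and 67.6 CPM with control IgG. Control IgG replicate 2 was far above the other 3 libraries, which overlapped. The 2 control libraries differed 2.58-fold from each other and the 2 anti-CD93 libraries 1.56-fold, the widest spread of the 7 genes in both groups. The log2 fold change was -0.61 (SE 0.42, edgeR adjusted p = 0.812), with a 95% interval from -1.57 to 0.36 on the log2 scale. It turned to 0.23 when control IgG replicate 2 was left out (adjusted p = 0.880). With control IgG replicate 1 left out instead, the value was -1.13 (adjusted p = 0.0366), in a fit with 1 control library that called 26.8% of all genes.

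Endosialin is known from pericytes and fibroblasts, so markers of both are given beside it. All 9 pericyte and smooth muscle markers were tested. Their summed level was 835 to 1017 CPM with anti-CD93 and 846 to 969 CPM with control IgG. Control IgG replicate 2 was not the highest library in this sum, most of which was Abcc9 and Rgs5. Marker by marker, Pdgfrb, Cspg4, Acta2, Tagln and Des were highest in control IgG replicate 2, and Rgs5, Notch3, Kcnj8 and Abcc9 were not. Of the 9 markers 3 lay higher and 6 lower with anti-CD93, with a median log2 fold change of -0.29, and none was at 0. Pdgfrb, the gene of the pericyte growth factor receptor, had 76.0 and 53.5 CPM with anti-CD93 against 59.5 and 82.0 CPM with control IgG, the same order of libraries as Cd248 within each group. Abcc9, the gene of a potassium channel subunit of pericytes, had 505 and 453 CPM with anti-CD93 against 510.2 and 399.8 CPM with control IgG, where control IgG replicate 2 was the lowest. All 6 fibroblast markers were tested as well. Their summed level was 1761 and 2196 CPM with anti-CD93 against 2103 and 2835 CPM with control IgG, with control IgG replicate 2 the highest. By fold change 4 of 6 lay lower with anti-CD93 and none was at 0. Col1a1, Col1a2 and Col3a1 made up most of the sum, and they and Dcn were highest in control IgG replicate 2. Pdgfra and Lum were highest in anti-CD93 replicate 2, at 14.6 and 4.94 CPM. Within anti-CD93 the sum was higher in replicate 2, where Cd248 was lower. The part of these cells in the Cd248 values was not tested, and in bulk RNA fewer cells of a type and less RNA per cell cannot be told apart.

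Mmrn2 (chromosome 14, 34375465 to 34404287) had the smallest p of the 7 genes. It had 637 and 614 CPM with anti-CD93 against 706 and 1077 CPM with control IgG. The anti-CD93 libraries were within 1.04-fold of each other and below both controls, while the controls differed 1.53-fold. The group means were 625 ± 16.2 CPM with anti-CD93 and 891 ± 263 CPM with control IgG (SD, n = 2 each), a log2 fold change of -0.51 (SE 0.22, edgeR unadjusted p = 0.0506, adjusted p = 0.812). The 95% interval ran from 0.491-fold to 1.001-fold, and 774 other genes had a smaller p. The value shrank to -0.18 with control IgG replicate 2 left out (adjusted p = 0.688). With control IgG replicate 1 left out it was -0.78 (adjusted p = 4.82e-04), in the fit that called 26.8% of all genes, 12.8% of all genes on the lower side.

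Set against the receptor gene, the reads of Mmrn2 per read of Cd93 numbered 0.371 and 0.405 with anti-CD93 and 0.461 and 0.612 with control IgG. The ratio was lower in both anti-CD93 libraries than in both controls, and the controls differed from each other more than control IgG replicate 1 did from either anti-CD93 library. The 12 pan-endothelial markers had a summed level of 9325 and 9592 CPM with anti-CD93 against 9518 and 11660.0 CPM with control IgG, with control IgG replicate 2 the highest here too. Of these markers 11 lay lower with anti-CD93 and 1 higher, where 50.9% of all genes lay lower. Their median log2 fold change was -0.18, and 0 were past the test. Both anti-CD93 libraries were below both controls in 7 of 12, where 19.7% of all genes had this. The part of these marker levels in the Mmrn2 values was not tested.

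Igfbp7 (chromosome 5, 77349240 to 77408041), the gene of the secreted ligand, had 1742 and 1829.5 CPM with anti-CD93 against 1993 and 2151 CPM with control IgG. Both anti-CD93 libraries were below both controls, and the libraries of each group lay close together, within 1.05-fold with anti-CD93 and 1.08-fold with control IgG. The group means were 1786 ± 62.2 CPM with anti-CD93 and 2072 ± 112 CPM with control IgG (SD, n = 2 each), a log2 fold change of -0.21 (SE 0.17, edgeR adjusted p = 0.812). The 95% interval ran from 0.661-fold to 1.12-fold. Igfbp7 was steadier than Mmrn2 and Mmrn1: with each library left out in turn its log2 fold change stayed between -0.27 and -0.16. Igfbp7 shares 85 exonic bases at its end with Polr2b on the opposite strand, and its span holds the predicted gene Gm34648, also on the opposite strand, with no shared exonic base. Polr2b had 669 to 1357 reads in these libraries and Igfbp7 20095 to 30828. Of the 7 genes, Igfbp7 was the only one whose span overlapped another gene in the deposited table.

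Mmrn1 (chromosome 6, 60924976 to 60989378), the gene of multimerin-1, a relative of multimerin-2 known from platelets and lymphatic endothelium, had 65.4 and 81.2 CPM with anti-CD93 against 112 and 62.8 CPM with control IgG. Here control IgG replicate 1 was the highest library and control IgG replicate 2 the lowest, the reverse of their order in Mmrn2. The log2 fold change was -0.25 (SE 0.28, edgeR adjusted p = 0.849), from 0.537-fold to 1.31-fold, and the sign changed to 0.22 without control IgG replicate 1 (adjusted p = 0.294), against -0.61 without control IgG replicate 2 (adjusted p = 0.219).

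Lymphatic and platelet markers are given beside Mmrn1. Of the 6 lymphatic markers 5 were tested, and their summed level was 540.0 and 566 CPM with anti-CD93 against 623 and 605 CPM with control IgG. Prox1, the lymphatic identity factor, had 23.1 and 42.0 CPM with anti-CD93 against 43.2 and 30.6 CPM with control IgG, and Lyve1, a hyaluronan receptor gene, had 40.9 and 46.2 CPM against 54.7 and 32.3 CPM in the same groups. Both followed Mmrn1 within each group: replicate 2 was above replicate 1 with anti-CD93 and below it with control IgG. Pdpn and Reln had this order too. Flt4, the highest of the 5 tested markers and most of their sum, had the opposite order in both groups. It had 430 and 414 CPM with anti-CD93 against 451 and 479 CPM with control IgG. Of the 5 tested markers 0 passed the test, with a median log2 fold change of -0.19. The Lyve1 group means were nearly equal, at 43.6 CPM with anti-CD93 and 43.5 CPM with control IgG. The chemokine gene Ccl21a was near 0, with 2 to 11 reads a library. The 4 tested platelet markers of 6 summed to 42.3 and 21.9 CPM with anti-CD93 against 21.8 and 54.2 CPM with control IgG, within each group an order of replicates opposite to that of Mmrn1, and Gp1bb was listed at 0 in every library. The part of lymphatic cells in the Mmrn1 values was not tested.

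**Figure D2:**
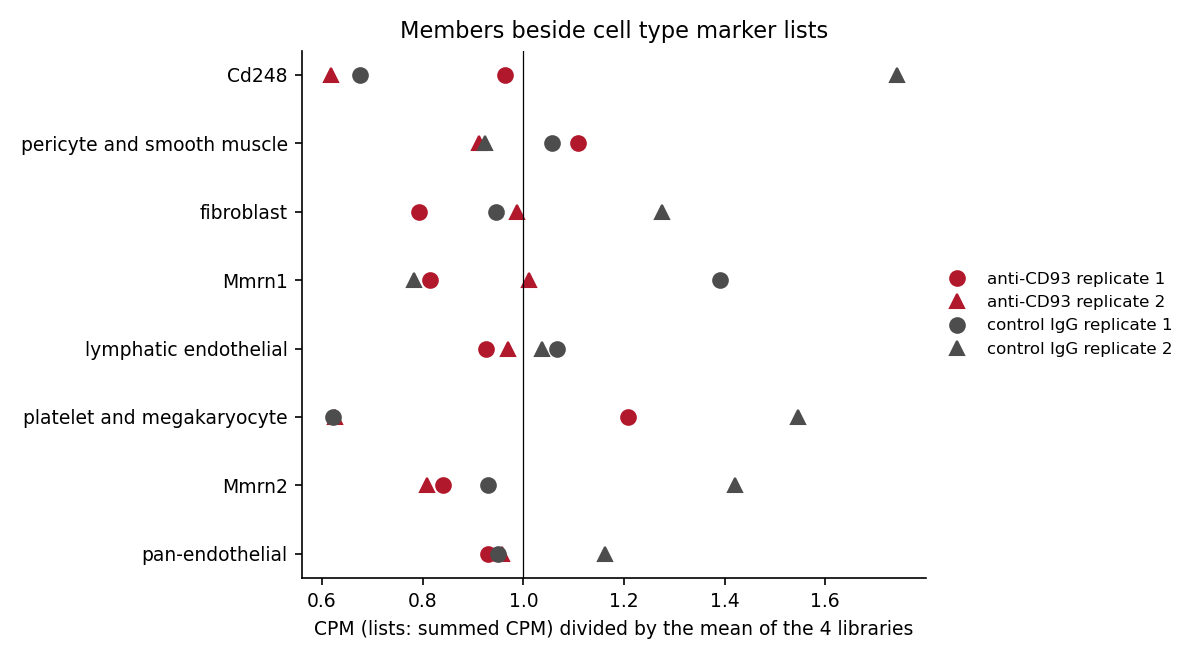
CPM of Cd248, Mmrn1 and Mmrn2, and summed CPM of cell type marker lists, in each library divided by the mean of the 4 libraries; red is anti-CD93, grey is control IgG, circles are replicate 1 and triangles replicate 2. Control IgG replicate 2 lies far to the right for Cd248, the platelet and megakaryocyte list and Mmrn2. It lies less far to the right for the fibroblast list, and to the left for Mmrn1.

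**Figure D3:**
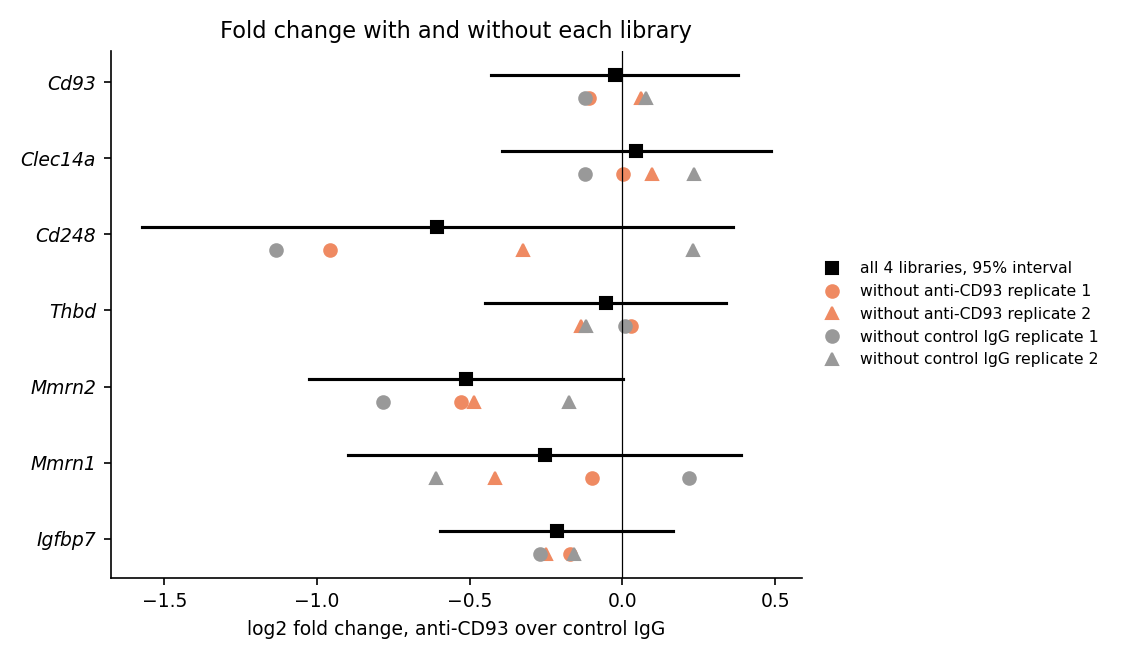
Log2 fold change of each gene, anti-CD93 over control IgG, with all 4 libraries (black squares, bars are 95% intervals from edgeR) and with each library left out (coloured symbols). Every black bar crosses 0, and Cd248, Mmrn2 and Mmrn1 move most when a control library is left out.

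Divided by exon length, the levels of the 7 genes differed widely. Igfbp7 was at 1477 ± 51.4 CPM per kilobase with anti-CD93 and 1714 ± 92.3 CPM per kilobase with control IgG (SD, n = 2 each), rank 8 of the 16945 genes. Cd93 was at 242 ± 21.4 CPM per kilobase with anti-CD93 and 246 ± 24.3 CPM per kilobase with control IgG, rank 91. Mmrn2 followed at 157 ± 4.07 with anti-CD93 and 224 ± 66.1 CPM per kilobase with control IgG, rank 121. The ligand genes Igfbp7 and Mmrn2 and the receptor gene Cd93 lay, in this order, above 99.95%, 99.3% and 99.5% of the genes tested.

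The other receptor genes were read far less per length. Thbd was at 43.9 ± 3.37 CPM per kilobase with anti-CD93 and 45.6 ± 2.83 CPM per kilobase with control IgG, and Clec14a at 24.8 ± 1.24 with anti-CD93 and 24.0 ± 4.21 CPM per kilobase with control IgG. Cd248 was at 11.8 ± 3.65 CPM per kilobase with anti-CD93 and 18.0 ± 11.2 CPM per kilobase with control IgG. Mmrn1 was at 12.5 ± 1.90 CPM per kilobase with anti-CD93 and 14.9 ± 5.88 CPM per kilobase with control IgG.

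Of the neighbouring pairs in this order, 3 had separate ranges and 3 overlapped. The Igfbp7 level per kilobase was 5.60 to 7.20 times that of Cd93, Mmrn2 was 3.34 to 6.22 times Thbd, and Thbd was 1.61 to 2.26 times Clec14a, with no overlap between the ranges over the 4 libraries. Cd93 and Mmrn2 overlapped: the Cd93 level per kilobase was 1.605 and 1.47 times that of Mmrn2 in anti-CD93 replicates 1 and 2, and 1.29 and 0.972 times in control IgG replicates 1 and 2. Clec14a was above Cd248 in 4 of 4 libraries, but only 1.04-fold in control IgG replicate 2. Cd248 and Mmrn1 changed places, with Cd248 higher in 2 of 4 libraries. These levels divide by the summed exon length of a gene name, which can be longer than the transcript that is read.

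**Figure D4:**
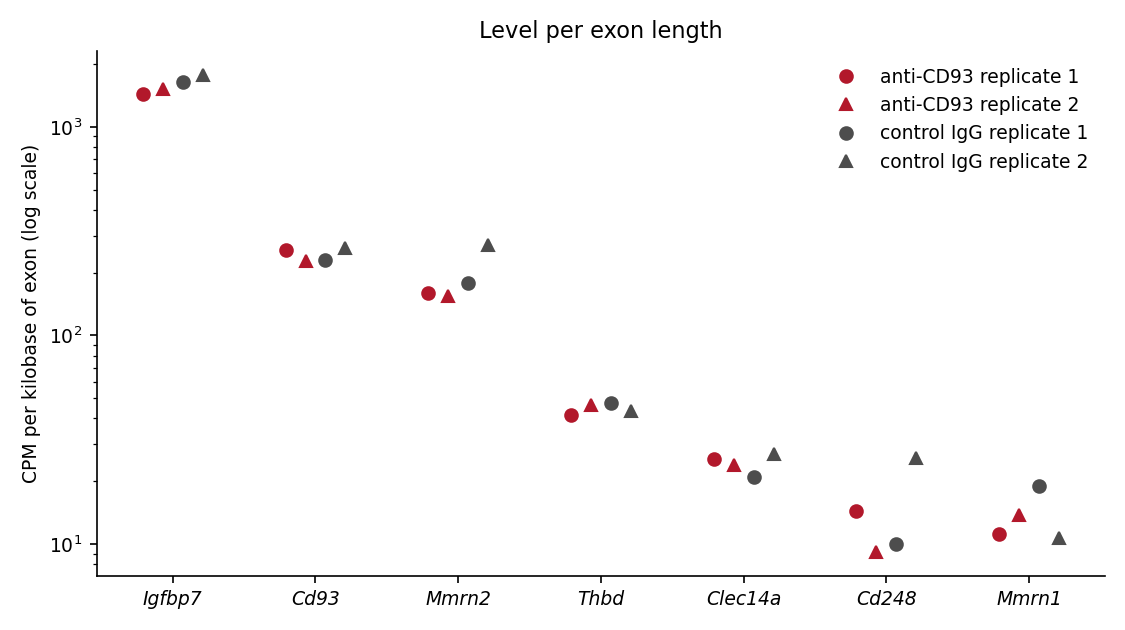
CPM per kilobase of exon for the 7 genes in each library on a log axis, in falling order of the mean; red is anti-CD93, grey is control IgG, circles are replicate 1 and triangles replicate 2. Igfbp7 stands alone at the top, Cd93 and Mmrn2 overlap, and Cd248 and Mmrn1 overlap at the bottom.

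The genes of the EMILIN and multimerin family, matrix proteins built on a shared plan, include Mmrn1 and Mmrn2. With anti-CD93, 4 of 4 tested genes of 5 listed lay lower, where 50.9% of all genes did. Both multimerin genes, given above, are among the 4. In this family 0 were past the test, and the median log2 fold change was -0.54. Emilin1, which encodes a glycoprotein of elastic fibres, had 79.0 and 78.2 CPM with anti-CD93 against 84.8 and 149 CPM with control IgG (log2 fold change -0.57, SE 0.26, edgeR adjusted p = 0.812). As in Mmrn2, the anti-CD93 libraries agreed closely, and control IgG replicate 2 alone was high. Emilin2 had 4.24 and 5.38 CPM with anti-CD93 against 4.32 and 11.7 CPM with control IgG, again with control IgG replicate 2 the highest. Emilin3 had 2 to 9 reads a library and was not tested.

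Tested genes for proteins that CD93, CLEC14A or endosialin are known to meet outside the cell numbered 13. Of these 3 lay higher and 10 lower with anti-CD93, where 50.9% of all genes lay lower. The 10 include the members Mmrn2 and Igfbp7, given above. In either direction 0 were past the test, and the median log2 fold change of the 13 was -0.22. Fn1, the gene of fibronectin, whose fibres endothelial cells assemble with help from CD93 and multimerin-2, had 1810.1 and 2245 CPM with anti-CD93 against 2073 and 3305 CPM with control IgG, with overlap between the groups. Itga5, a fibronectin-binding integrin subunit gene, had 348 and 362 CPM with anti-CD93 against 403 and 577 CPM with control IgG. Its groups did not overlap, as in 39.8% of all genes (log2 fold change -0.46, edgeR adjusted p = 0.812). Its partner subunit gene Itgb1 had 1381 and 1256 CPM with anti-CD93 against 1282 and 889.5 CPM with control IgG, with control IgG replicate 2 the lowest. Hspg2, the gene of the heparan sulphate proteoglycan perlecan, had 4261 and 4167 CPM with anti-CD93 against 4050.2 and 6408 CPM with control IgG, and only control IgG replicate 2 was above the rest.

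C1q, a complement protein once proposed as a ligand of CD93, is made mainly by macrophages. C1qa had 4.69 and 4.00 CPM with anti-CD93 against 1.96 and 2.25 CPM with control IgG. Its groups did not overlap, as in 39.8% of all genes (log2 fold change 1.05, SE 0.42, edgeR adjusted p = 0.812). C1qb and C1qc did not repeat this order: C1qb had 2.88 and 2.47 CPM with anti-CD93 against 1.22 and 5.14 CPM with control IgG, and C1qc had 2.54 and 3.34 CPM against 0.734 and 4.82 CPM in the same groups. The 4 tested macrophage markers of 5 summed to 28.5 and 25.1 CPM with anti-CD93 against 14.7 and 27.0 CPM with control IgG, with 2 higher and 2 lower and none at 0. C1qa is itself one of these markers, and the part of macrophages in its value was not tested.

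The 5 genes for proteins that bind the tail of CD93 or act next to it inside the cell showed 2 higher and 3 lower values with anti-CD93, 0 past the test, with a median log2 fold change of -0.036. Msn, the gene of moesin, which ties membrane proteins to actin, had 2011 and 2127 CPM with anti-CD93 against 1945 and 2298 CPM with control IgG. Cbl, a ubiquitin ligase gene, had 160.1 and 173 CPM with anti-CD93 against 159 and 117 CPM with control IgG (log2 fold change 0.27, SE 0.20, edgeR adjusted p = 0.812). Its control IgG replicate 1 was within 1 CPM of anti-CD93 replicate 1, so the separation of the groups rested on control IgG replicate 2.

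Among 7 tested genes of the thrombomodulin and protein C pathway, of 9 listed, 4 lay higher and 3 lower with anti-CD93, 0 past the test, with a median log2 fold change of 0.028. Procr, the gene of the endothelial protein C receptor, which hands protein C to thrombomodulin, had 40.3 and 41.0 CPM with anti-CD93 against 58.3 and 74.5 CPM with control IgG. The anti-CD93 libraries were nearly equal and both below the controls (log2 fold change -0.71, SE 0.20, edgeR adjusted p = 0.812). F2r, the gene of the thrombin receptor, had 95.2 and 86.5 CPM with anti-CD93 against 80.8 and 63.9 CPM with control IgG. Its groups did not overlap either, as in 39.8% of all genes (log2 fold change 0.33, SE 0.19, edgeR adjusted p = 0.812). Thrombomodulin itself, between the receptor for protein C and the receptor for thrombin in this pathway, showed the overlapping levels given above.

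Multimerin-2 is also known to bind VEGF-A. All 4 genes of VEGF-A and its receptors lay higher with anti-CD93, 0 past the test, where 50.9% of all genes lay lower. Their median log2 fold change was 0.080. Only Vegfa of the 4 had groups that did not overlap, where 39.8% of all genes had such groups. Vegfa had 271 and 262 CPM with anti-CD93 against 163 and 229.8 CPM with control IgG (log2 fold change 0.44, SE 0.21, edgeR adjusted p = 0.812), without overlap. Kdr, the gene of the main VEGF receptor, had 1290.4 and 1296 CPM with anti-CD93 against 1230.2 and 1312 CPM with control IgG. Both anti-CD93 libraries of Kdr lay between the controls. The log2 fold changes of Kdr and Nrp1 were close to 0, at 0.025 and 0.026, and that of Flt1 was 0.13.

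**Figure D5:**
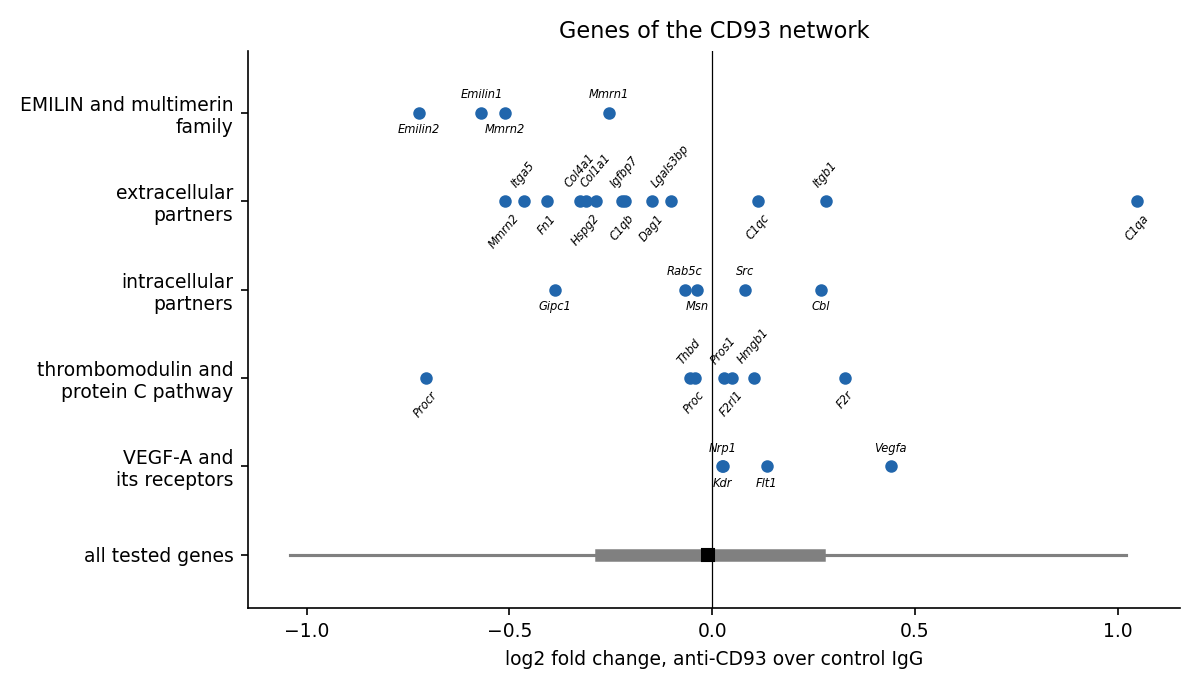
Log2 fold change, anti-CD93 over control IgG, of each tested gene of 5 lists around CD93, with the middle 50% (thick bar), the range from the 2.5 to the 97.5 percentile (thin bar) and the median (square) of all tested genes below. All 4 tested EMILIN and multimerin genes lie left of 0. VEGF-A and its receptors lie right of it, Kdr and Nrp1 close to it. C1qa is the only gene drawn outside the thin bar.

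Other genes shared the patterns of Cd93 and Mmrn2 over the 4 libraries. Likeness was the distance between log2 CPM values centred on each gene's mean, among 3752 candidate genes with at least 50 CPM. The nearest to Cd93 were Vangl1 (distance 0.0319), Sh3kbp1 (0.0331) and Atp5j (0.0429), and Vangl1 had 54.4 and 49.1 CPM with anti-CD93 against 49.6 and 55.9 CPM with control IgG. The nearest to Mmrn2 were Lgals9 (distance 0.0262), Nudc (0.0284) and Mdh2 (0.0374), and Lgals9 had 160.2 and 153 CPM with anti-CD93 against 175 and 273 CPM with control IgG. With only 4 libraries many genes are alike: 879 lay within 0.25 of Cd93 and 387 within 0.25 of Mmrn2.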

How the data were processed

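RNA of 4 sorted endothelial libraries was turned into stranded total RNA libraries with a kit for small inputs and read in pairs of 150 bases, per the labels' protocols. The authors deposited raw read counts per gene name, made with featureCounts 2.0.1 on GENCODE vM25 (GRCm38) per the file headers, and STAR 2.7.5b and DESeq2 1.28.1 are named in the submitters' processing notes. The recorded command has no paired and no strand option, so each mate counted on its own and opposite strands cannot be told apart. A second deposited table, called normalized in its name, had identical counts in all 221468 cells. Counts were filtered with filterByExpr (minimum count 10), scaled by TMM and tested with edgeR 4.0.16 (quasi-likelihood, robust, group only) in R 4.3.3. The tests were first run on simulated counts, drawn with the same dispersion trend for all libraries. A library that stands apart, as control IgG replicate 2 did, was not simulated. DESeq2 1.42.0, limma-voom 3.58.1, other scalings and filters, a replicate block and each library left out were alternatives. Fits without a library kept the same 16945 genes. Depth and 2 libraries per group limit the precision. Members and lists were chosen with earlier results of these data known. Named genes were the members, genes of the lists, and the 3 genes nearest in pattern to Cd93 and Mmrn2, predicted Gm and Rik genes left out.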

Additional observations from a re-analysis of the deposited data

How the results depend on the processing

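Of 91 member values under 13 alternatives, 81 kept their direction and stayed on the same side of the threshold, 8 reversed and 2 passed it. No genes were called with all 4 libraries by edgeR (761 at an unadjusted p under 0.05). The count was 48 with no count filter, 5 by DESeq2, and 0 to 4549 with 1 library left out: 0 without anti-CD93 replicate 1, 1 without anti-CD93 replicate 2, 4549 without control IgG replicate 1 and 13 without control IgG replicate 2. The lone library of a group is there assumed to vary like the other group. With 1 library left out the log2 fold change ran from -0.12 to 0.077 for Cd93, -0.12 to 0.23 for Clec14a, -1.13 to 0.23 for Cd248, -0.14 to 0.029 for Thbd, -0.78 to -0.18 for Mmrn2, -0.61 to 0.22 for Mmrn1 and -0.27 to -0.16 for Igfbp7. With no count filter Cd93 was 0.025, a reversal. The value of every member rose in this setting, that of Igfbp7 from -0.21 to -0.17, while the median over all genes was -0.094. The cause of this shift was not tested. No other alternative with all 4 libraries reversed a member. Halved counts, chosen after seeing the data, called 0 genes. The median over all genes was -0.13 by DESeq2 on all genes with reads.

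Replicate numbers are not said to pair libraries, and deviations of same-numbered libraries correlated at -0.0155. With the replicate block 14 genes were called and no member; the log2 fold changes were -0.025 for Cd93, 0.055 for Clec14a, -0.49 for Cd248, -0.056 for Thbd, -0.48 for Mmrn2, -0.21 for Mmrn1 and -0.21 for Igfbp7.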
